A study of Mus musculus with 9 samples.

Results

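In RAW264.7 macrophages, 56 of 55401 listed genes stood close to their control level with LPS alone and higher when skatole was given with LPS. They were chosen by their measured levels in all groups, on a scale x, the log2 of the mean TPM of a group plus 1, where TPM, the deposited unit, gives each transcript's length-corrected share of the RNA in a column. A gene needed 5 TPM or more on average over all columns, a difference between LPS and DMSO of less than 0.4 on the x scale in either direction, and a rise of more than 0.5 from LPS to LPS + Ska. In addition, all 3 LPS + Ska columns had to lie above every LPS and every DMSO column. Genes of the mitochondrial genome and ribosomal proteins, snoRNAs, miRNAs and unnamed gene models were dropped by symbol. So were respiratory chain genes with symbols starting Nduf, Cox or Atp5, but no others of that chain. Of 10029 genes averaging 5 TPM or more, 4961 lay in the LPS window, 135 of these also passed the rise, 101 had columns apart, and 45 of the 101 were dropped by symbol. Every comparison of the study entered the rule, so the values of the 56 genes are given as a description, with no test.

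RAW264.7 is a macrophage line of WT genotype from a tumour that Abelson murine leukemia virus induced in a male mouse, and all samples came from this line. The 3 groups were DMSO, the solvent control, DMSO+LPS, called LPS here, and LPS+Skatole, called LPS + Ska here, each for 24 h according to the labels, while the methods of the study give a longer time. LPS is a bacterial wall component used to bring about the pro-inflammatory M1 state, and skatole is an indole compound. Each group had 3 samples numbered 5, 6 and 7, nothing in the labels says that they were separate cultures, and the skatole dose of this experiment was not given in the sources used here.

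Macrophages that meet LPS sense it through Tlr4 with the co-receptor Cd14, and they change metabolism and produce reactive oxygen species as they become inflammatory. Peroxiredoxins remove hydrogen peroxide and are reduced again by thioredoxin, which draws on NADPH from enzymes such as malic enzyme and isocitrate dehydrogenase. Many genes of this kind carry an antioxidant response element, the DNA motif bound by the transcription factor Nrf2 with a small Maf protein.

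The columns have 2 limits that touch every value. The depth behind each column is unknown because TPM does not record it, and 12498 to 13012 genes per column reached a TPM of 1. With LPS, replicate 5 was midway between replicates 6 and 7 in 17950 of 17950 genes in which both were above 0 (tolerance 1e-05 TPM), and the same held for 17658 of 17658 genes with LPS + Ska but for 10 of 16674 genes (0.06%) with DMSO. No more than 2 of the 3 values of a gene are thus independent in the LPS and in the LPS + Ska group, and n = 3 below counts columns. Standard errors and adjusted p-values below treat the 3 as independent and are likely too small. Macrophage markers were present except Mertk, listed at 0, and the summed level of the 14 listed markers, among them Cd14, was 13580 to 14620 TPM with DMSO, 8079 to 8474 with LPS and 14320 to 14610 with LPS + Ska. The 12 osteoclast markers, of which Calcr was at 0 and 3 were under a TPM of 1 in every column, summed to 306 to 328 TPM with DMSO, 1868 to 1910 with LPS and 1373 to 1391 with LPS + Ska, and the part of either list in the results was not tested. All markers listed for fibroblasts, lymphocytes and epithelial or endothelial cells were under a TPM of 1 in every column, as were 9 of the 10 for granulocytes and mast cells.

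A promoter window from RefSeq (GRCm38.p6, 250 bases before to 50 bases after the start site) was at hand for 46 of the 56 genes, 12 of them with more than 1 window, and the other 10 had none. The core of the antioxidant response element, TGACNNNGC, was found on either strand in the windows of 9 genes (Lrrc57, Tmem230, Procr, Prdx1, Ugdh, Me1, Atox1, Nme1 and Slc16a12). The parts of windows below belong to the genes for a peroxiredoxin, malic enzyme and UDP-glucose dehydrogenase, which stand in a list of known Nrf2 targets, and to those for a protein C receptor and a copper chaperone, which do not. Esd and Txn1, also of the 56 and on that list, had windows without this core. The parts shown are written 5′ to 3′ along the gene's own strand with the matching letters in capitals.
Prdx1, chr4:116685441-116685499, plus strand: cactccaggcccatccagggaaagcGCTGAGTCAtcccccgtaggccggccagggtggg
Me1, chr9:86695912-86695945, minus strand: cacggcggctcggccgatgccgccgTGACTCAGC
Ugdh, chr5:65435941-65435999, minus strand: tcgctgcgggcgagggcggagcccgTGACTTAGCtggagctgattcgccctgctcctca
Procr, chr2:155751038-155751096, plus strand: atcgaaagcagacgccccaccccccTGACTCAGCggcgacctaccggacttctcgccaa
Atox1, chr11:55461249-55461307, minus strand: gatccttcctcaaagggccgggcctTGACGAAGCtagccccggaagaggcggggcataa

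In Prdx1 the match lies on the opposite strand, with its first base 133 bases before the start site, and in Me1 it begins 6 bases before it. In Ugdh, Procr and Atox1 it begins 132, 154 and 74 bases before the start site, and Ugdh has a further match on the opposite strand at 94 bases before it. Such matches were about as common elsewhere: 19.6% of the 46 genes had one, against 17.1% of 7439 genes averaging 5 TPM or more that had a window, and 12.4% of all 32851 windows, counted per window because a gene can have several. The other motifs searched, on both strands, were likewise near the share among those 7439 genes. The xenobiotic response element core GCGTG, bound by the aryl hydrocarbon receptor AhR, was in 25 of the 46 genes against 58.9%, the E-box CACGTG in 7 against 12.7%, and the NF-kB motif, GGGA and CC with 4 free bases between, in 14 against 29.6%. No window of the 46 genes held the heat shock element, GAA, TTC and GAA with 2 free bases between neighbours, which 0.538% of the 7439 had. Procr and Atox1 also had an NF-kB match and Ugdh and Atox1 a xenobiotic element in the same 300 bases, and in Ugdh one of these shares its letters with the antioxidant match at 94 bases.

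The 56 genes had a median difference of 0.67 between LPS + Ska and LPS (range 0.50 to 2.25), where the 10029 genes averaging 5 TPM or more had a median of -0.089. Between LPS and DMSO their median was -0.02 (range -0.38 to 0.38) against -0.068, and between LPS + Ska and DMSO 0.73 (range 0.18 to 2.52) against -0.16. Of the 10029 genes, 8.08% had LPS + Ska columns above all LPS and DMSO columns, a condition that the rule itself demanded of the 56. In linear terms the ratio of LPS + Ska to LPS had a median of 1.62, and it was at least 2 in 8 genes and at least 1.5 in 41. The summed TPM of the 56 genes was 6949, 6962 and 7175 in the DMSO columns, 7065, 7015 and 7114 in the LPS columns, and 11689, 11513 and 11865 in the LPS + Ska columns. As a share of the sample their transcripts stood level in DMSO and LPS and were higher in LPS + Ska, which restates the rule that chose them. In bulk RNA, a change in the share of cells in one state and a change of RNA per cell cannot be told apart.

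**Figure D1:**
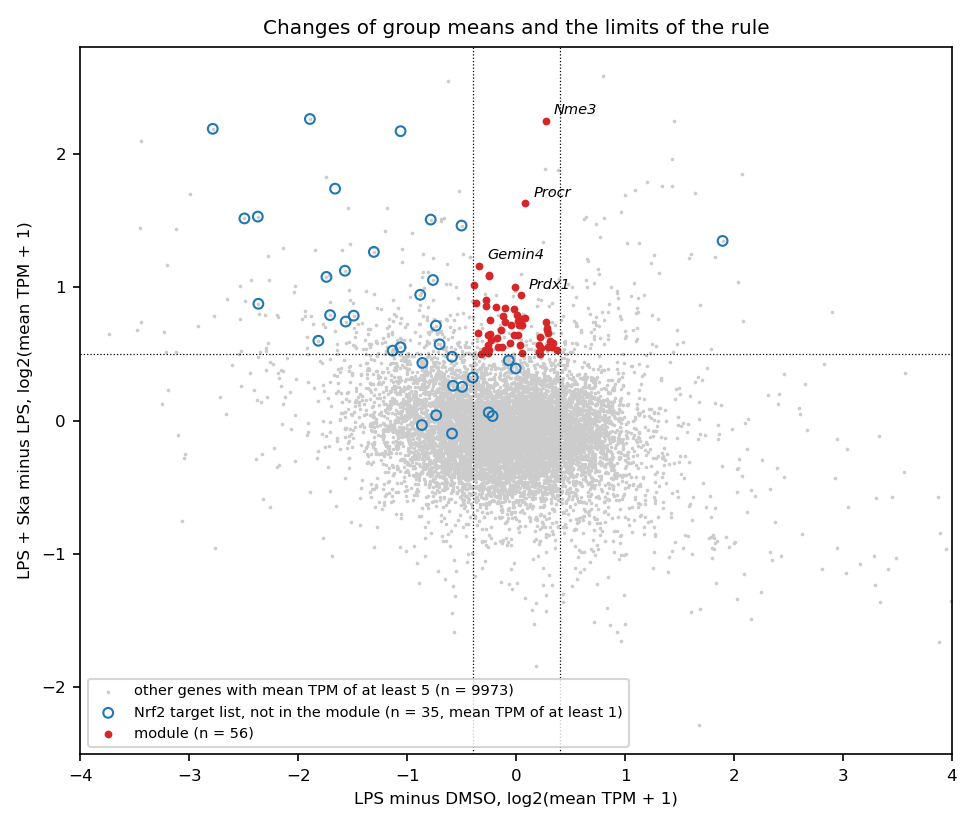
Difference between LPS and DMSO (x axis) against difference between LPS + Ska and LPS (y axis), both in log2(mean TPM + 1), for genes averaging 5 TPM or more (grey), the 56 genes (red) and the 35 tested genes of the Nrf2 target list that are not among them (blue rings). Dotted lines mark the limits at -0.4, 0.4 and 0.5, grey points in the same area are genes dropped by symbol or with overlapping columns, and 24 genes lie outside the axes.

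The LPS window limited the size of a change and did not require equal levels. In 34 of the 56 genes the LPS and DMSO columns overlapped, in 8 all LPS columns lay above all DMSO columns and in 14 all lay below. Among all 4961 genes in the window, 26.6% had LPS columns above and 25.3% below, and since the rule used this comparison nothing is read from the counts. The 8 genes with higher LPS columns were Cd14, Cd63, Krtcap2, Psma5, Commd8, Pafah2, Agbl3 and Rnf183, and for these the order was DMSO, LPS, LPS + Ska. The 14 with lower LPS columns included Esd, Idh1, Hint1, Cyb5a, Txn1, Me1, Ugdh and Plin2, whose LPS + Ska columns passed the DMSO columns from below.

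Some genes sat close to a limit. Just inside the rise of 0.5 were Ift20 (0.5001), Commd8 (0.5018) and Tmem230 (0.5036), and just outside were Flvcr1 (0.4958), Fopnl (0.4916) and Pqlc1 (0.4912). For the LPS window the values without sign were 0.3828 in Mogat1, 0.3771 in Lsm8 and 0.3712 in Magef1 inside, and 0.413 in Mfap3l, 0.4213 in Prkar2b and 0.4399 in Tvp23b outside. The mean TPM was 5.416 in Iqcg, 5.531 in Sgk1 and 5.633 in Nme3 inside, and 4.752 in Zfp97, 4.137 in Adora3 and 3.829 in Serpinb12 outside. Iqcg, Sgk1, Nme3 and Procr had DMSO and LPS means under 5 TPM, so they met this limit only through LPS + Ska. The same holds for Mogat1, whose means of 5.35 TPM with DMSO and 3.87 with LPS average under 5. The lowest LPS + Ska column was 1.034 times the highest other column in Ift20, 1.035 times in Txn1 and 1.04 times in Iqcg, and 0.9656, 0.961 and 0.9158 times in Reep5, Romo1 and Grwd1, which missed this condition. This ratio was at least 1.2 in 38 of the 56 genes.

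**Figure D2:**
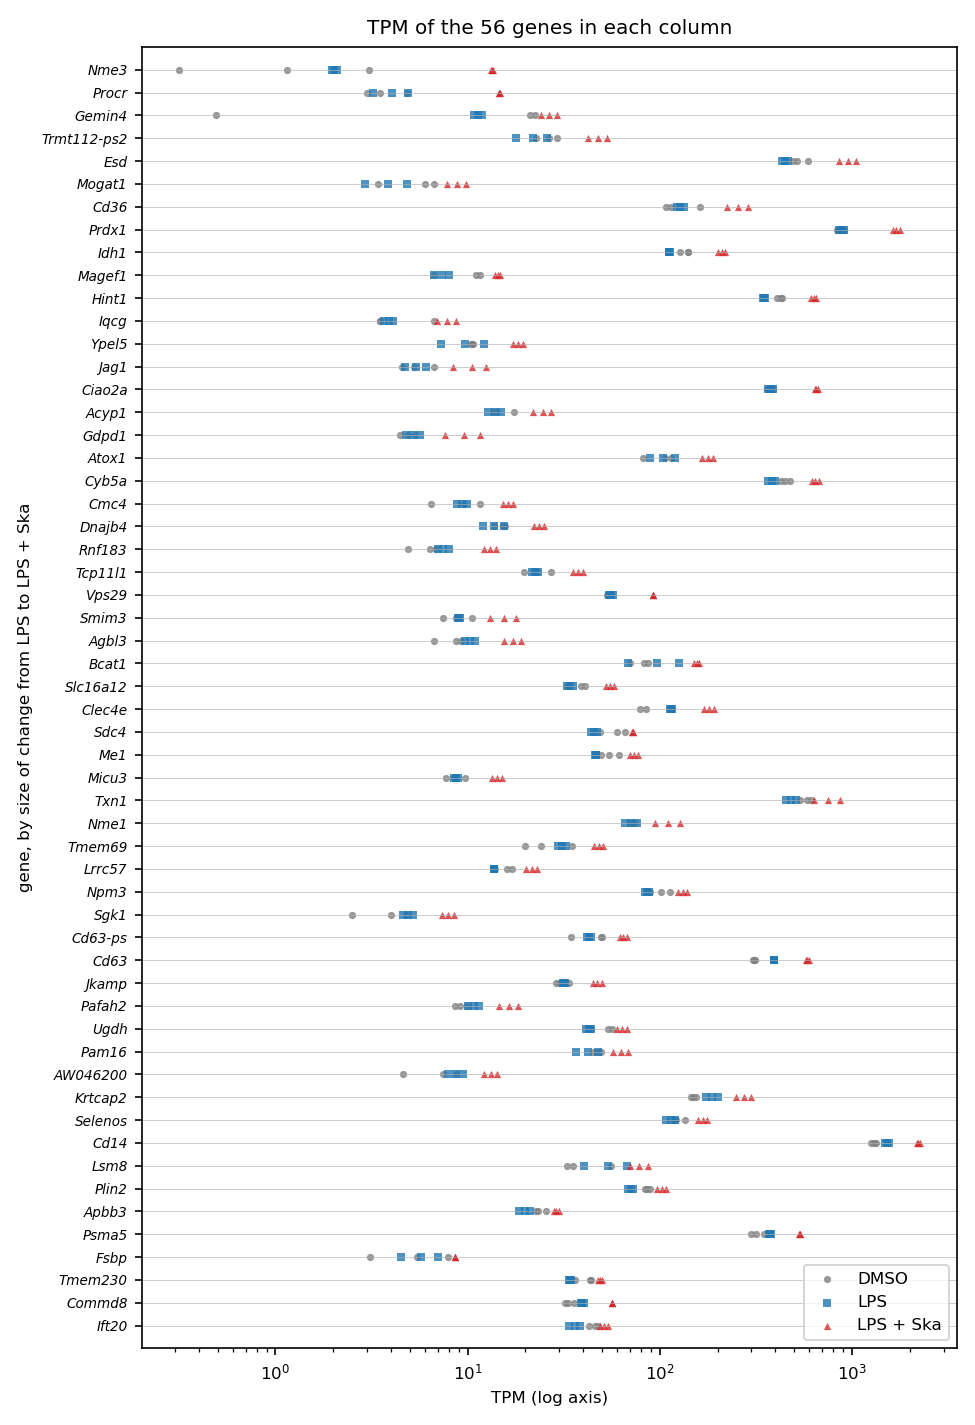
TPM on a log axis in each of the 9 columns for the 56 genes, ordered from the top by the difference between LPS + Ska and LPS, with DMSO as grey circles, LPS as blue squares and LPS + Ska as red triangles. The triangles lie to the right of the other symbols in every row, as the rule requires, by wide margins in Nme3, Procr and Prdx1 and narrow ones in Txn1 and Ift20.

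Enzymes of redox balance, NADPH supply and conjugation made up 7 of the 56 genes and held the 3 most abundant ones after Cd14 (Prdx1, Esd and Txn1). Prdx1 (ENSMUSG00000028691, chr4:116685544-116700822), the cytosolic peroxiredoxin, had 832, 843 and 905 TPM with DMSO, 885, 914 and 856 with LPS, and 1700, 1773 and 1627 with LPS + Ska. The DMSO and LPS columns overlapped and the LPS + Ska columns stood clear of them, with a mean 1.92 times that of LPS, a difference of 0.94. Txn1 (ENSMUSG00000028367), the thioredoxin that reduces peroxiredoxins, had 536, 581 and 613 TPM with DMSO, 482, 452 and 512 with LPS, and 752, 634 and 870 with LPS + Ska. Its 3 LPS + Ska columns were widely spread (752 ± 118 TPM, SD, n = 3), and the lowest of them, replicate 6, was barely above the highest DMSO column.

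Esd (ENSMUSG00000021996, chr14:74732297-74750765) encodes S-formylglutathione hydrolase, which completes the glutathione-dependent removal of formaldehyde. Its TPM was 591, 515 and 494 with DMSO, 449, 463 and 435 with LPS, and 954, 854 and 1054 with LPS + Ska. LPS columns were the lowest, and the LPS + Ska mean was 2.12 times the LPS mean. The genes for NADPH-forming enzymes showed the same order with smaller steps. Idh1, cytosolic isocitrate dehydrogenase, had 127, 140 and 140 TPM with DMSO, 112, 113 and 111 with LPS, and 210, 218 and 202 with LPS + Ska. Me1, cytosolic malic enzyme, had 54.1, 49.2 and 61.5 TPM with DMSO, 46.4, 46.2 and 46.7 with LPS, and 73.4, 77.2 and 69.6 with LPS + Ska. The groups of both genes were separate, with LPS lowest and LPS + Ska highest. Ugdh, which makes the UDP-glucuronate used for glucuronidation, had 44.0, 53.7 and 56.5 TPM with DMSO, 42.7, 41.5 and 44.0 with LPS and 63.7, 67.5 and 59.9 with LPS + Ska. Cyb5a, the cytochrome b5 that donates electrons to microsomal enzymes, had 427, 476 and 448 TPM with DMSO, 382, 366 and 399 with LPS and 644, 672 and 616 with LPS + Ska. Across the 7 genes the difference between LPS + Ska and LPS ran from 0.56 to 1.09 with a median of 0.75.

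**Figure D3:**
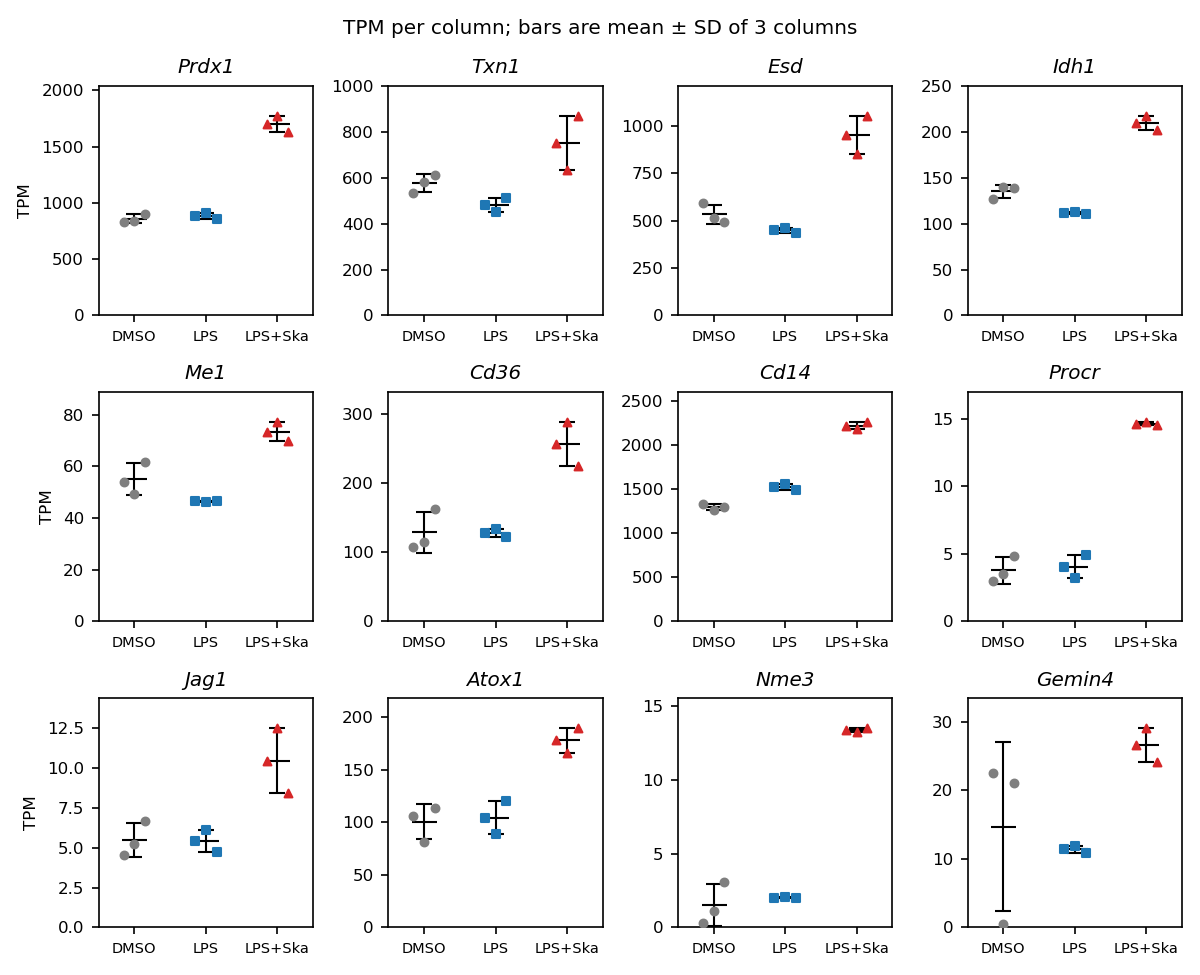
TPM of 12 of the genes in each column (points, replicates 5, 6 and 7 from left to right) with the mean and SD of the 3 columns as bars, on axes that start at 0. In every panel the 3 LPS + Ska columns are highest, and Gemin4 shows 1 DMSO column near 0 beside a pair above 20 TPM.

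None of the closest relatives of these enzymes was called higher from LPS to LPS + Ska. The other peroxiredoxin genes Prdx2, Prdx3, Prdx4, Prdx5 and Prdx6 had log2 fold changes of -0.01, -0.01, 0.06, -0.05 and 0.25 between LPS + Ska and LPS in limma, on log2(TPM + 1), and none was called. A gene was called at a Benjamini-Hochberg adjusted p below 0.05 with a fold change above 1.5 or below 0.67. Prdx6 had an adjusted p of 0.0055 with a standard error of 0.05 but a fold change under the limit. Prdx3, the mitochondrial peroxiredoxin, was already called higher in LPS than in DMSO, with a log2 fold change of 0.66 (SE 0.05, limma adjusted p = 4.0e-06), and in LPS + Ska than in DMSO, with 0.65 (SE 0.05, limma adjusted p = 3.6e-06). Mitochondrial thioredoxin Txn2 had a log2 fold change of 0.25 (limma adjusted p = 0.12). Idh2, the mitochondrial isocitrate dehydrogenase, had 270 ± 9.24, 170 ± 2.28 and 131 ± 9.64 TPM in DMSO, LPS and LPS + Ska (SD, n = 3), and it was called lower in LPS than in DMSO, with a log2 fold change of -0.67 (limma adjusted p = 1.6e-05). Mitochondrial malic enzyme Me2 was at -0.06 from LPS to LPS + Ska (limma adjusted p = 0.47). The enzymes that keep thioredoxin and peroxiredoxin in use are outside the 56 genes, with levels under LPS below the window and LPS + Ska columns that overlapped those of DMSO, and both were called higher. Txnrd1, thioredoxin reductase, changed by 0.71 (SE 0.09, limma adjusted p = 7.5e-04) and Srxn1, sulfiredoxin, by 1.12 (SE 0.15, limma adjusted p = 8.8e-04).

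Known Nrf2 targets as a list mostly lay outside the LPS window. Of 52 genes listed, 40 were tested and 5 belonged to the 56 genes (Esd, Prdx1, Me1, Txn1 and Ugdh), where all genes tested held 56 among 12819. Of the other 35, 26 were called lower and 1 higher in LPS than in DMSO, where limma called 20% of all 12819 genes tested lower and 12.7% higher. From LPS to LPS + Ska, 20 of the 35 were called higher, against 3.35% of all genes tested. Limma called 0 of the 35 lower in that step, and 0 were lower at an unadjusted p below 0.05. Of the 20 called higher, 18 had been called lower by LPS, 1 had not been called and 1, the cystine transporter gene Slc7a11, was called higher by LPS. The rule had taken out listed genes with a small LPS change, so this split is partly set by it. Over all 40 tested, 24 were called higher, of which 18 had been called lower by LPS, 5 not called and 1 higher. Against DMSO, 4 of the 35 were called higher in LPS + Ska, where 11.4% of all genes tested were. The 5 genes left out had to lie above DMSO by the rule, which can lower this count, and over all 40 it was 6. The median of the 35 was -0.87 from DMSO to LPS, 0.74 from LPS to LPS + Ska and -0.24 from DMSO to LPS + Ska. Over all 40 these medians were -0.80, 0.72 and -0.15. Cbr3, a carbonyl reductase gene, had the largest fall with LPS on the list, far beyond the median. It was at 25.8 ± 2.07, 2.89 ± 0.269 and 16.7 ± 1.38 TPM in DMSO, LPS and LPS + Ska (SD, n = 3). Prdx1 at 860 ± 39.3, 885 ± 28.8 and 1700 ± 73.1 TPM (SD, n = 3) had overlapping DMSO and LPS columns, and the rule required a small LPS change of it.

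**Figure D4:**
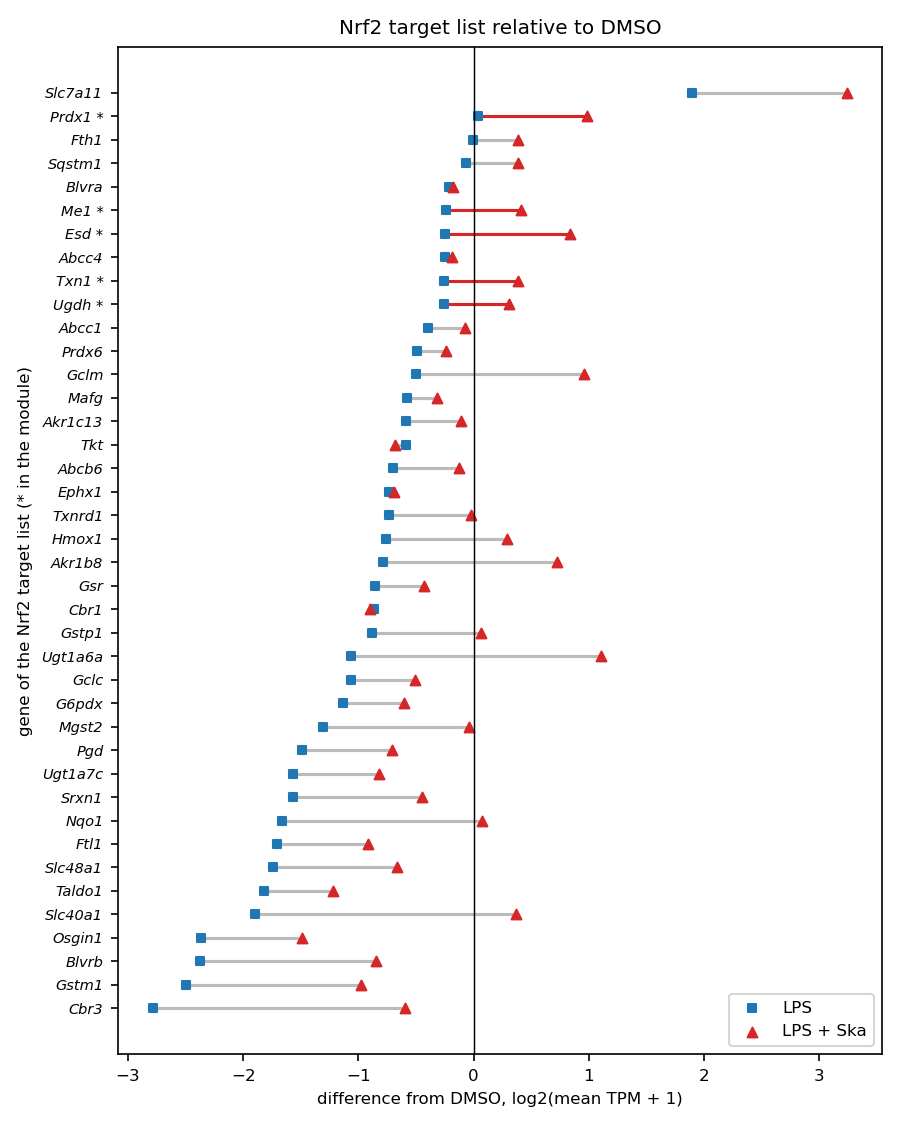
Difference from DMSO in log2(mean TPM + 1) for the 40 tested genes of the Nrf2 target list with LPS (blue squares) and LPS + Ska (red triangles), ordered by the LPS value, with the 5 genes of the module marked by stars and red lines. Those 5 start between -0.26 and 0.04 and end right of 0, while most others start left of -0.5.

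The 56 genes are a small part of the 12819 tested, so a short list could hold none of them at that share. Of related lists, carbonyl, aldehyde and conjugation enzymes held 3 among 52 tested. Glutathione and thioredoxin held 2 among 46, and NADPH and central carbon metabolism 2 among 52. None of the 34 tested iron and haem genes was among the 56, although 8 were called higher and 2 lower from LPS to LPS + Ska (3.35% and 6.14% of all genes tested). Slc40a1, the iron exporter ferroportin, had 11.7, 2.41 and 15.4 TPM as means of DMSO, LPS and LPS + Ska, and Blvrb, a biliverdin reductase, had 152, 28.5 and 84.1. Slc48a1, a haem transporter, had a log2 fold change of 1.08 (SE 0.10, limma adjusted p = 1.3e-04) from LPS to LPS + Ska, Cp, ceruloplasmin, of -1.30 (SE 0.20, limma adjusted p = 0.0017), and Lcn2, lipocalin 2, of -1.15 (SE 0.18, limma adjusted p = 0.0018). Slc40a1, Blvrb and Slc48a1 are also in the Nrf2 list and were counted there. Among AhR targets 6 of 15 were tested, none was among the 56 genes, and 3 were called higher in LPS + Ska (Ugt1a6a, Nqo1 and Ugt1a7c). All 3 are also in the Nrf2 list, and all 3 had been called lower by LPS. Ahrr, the AhR repressor, had a log2 fold change of -0.22 (limma adjusted p = 0.36) and Serpinb2 of -0.11 (limma adjusted p = 0.62).

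Metal handling was represented by Atox1 and Ciao2a. Atox1, the chaperone that hands copper to the transporters of the secretory pathway, had 106, 81.6 and 114 TPM with DMSO, 104, 88.4 and 121 with LPS, and 178, 166 and 190 with LPS + Ska. Ciao2a, a factor of cytosolic iron-sulphur protein assembly, had 362, 378 and 387 TPM with DMSO, 377, 390 and 365 with LPS, and 653, 668 and 638 with LPS + Ska. In both genes the DMSO and LPS columns overlapped and the LPS + Ska columns were clear of them, with differences of 0.76 and 0.79 from LPS.

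Lipid uptake and metabolism accounted for 5 genes. Cd36 (ENSMUSG00000002944, chr5:17781690-17888801), a scavenger receptor for oxidised lipoprotein and fatty acids, had 108, 115 and 163 TPM with DMSO, 128, 133 and 123 with LPS, and 257, 289 and 225 with LPS + Ska. The LPS columns fell within the DMSO range and the LPS + Ska mean was 2.01 times the LPS mean. Plin2, the coat protein of lipid droplets, had 89.0, 84.2 and 85.7 TPM with DMSO, 70.6, 68.5 and 72.7 with LPS and 102, 108 and 97.2 with LPS + Ska, so LPS was lowest and the step above DMSO was small. Mogat1, a monoacylglycerol acyltransferase, was low throughout, at 6.68, 5.97 and 3.42 TPM with DMSO, 3.87, 2.93 and 4.81 with LPS and 8.84, 9.86 and 7.82 with LPS + Ska. Gdpd1, a glycerophosphodiester phosphodiesterase, had means of 5.20 TPM with LPS and 9.59 with LPS + Ska, and Pafah2, which hydrolyses oxidised phospholipids, of 10.8 and 16.5 TPM. The list of LXR and PPAR lipid handling genes held 2 of the 56 (Cd36 and Plin2) among 29 tested, where all genes tested held 56 among 12819.

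At the cell surface and in signalling there were 8 genes. Cd14, the LPS co-receptor and the most abundant of the 56, had 1328, 1260 and 1301 TPM with DMSO, 1523, 1560 and 1486 with LPS, and 2218, 2178 and 2259 with LPS + Ska. The groups were in steps, LPS above DMSO and LPS + Ska above both, with differences of 0.23 and 0.54. Cd63, a tetraspanin of late endosomes, followed the same steps at 311, 304 and 311 TPM with DMSO, 391, 391 and 391 with LPS and 586, 597 and 575 with LPS + Ska. Clec4e (Mincle), a C-type lectin receptor for mycobacterial glycolipid, had 84.7, 78.5 and 116 TPM with DMSO, 114, 113 and 116 with LPS, and 181, 192 and 171 with LPS + Ska. One DMSO column, replicate 7, was at the LPS level. Of 5 related genes tested, Clec4d, Clec4n, Clec4a2 and Clec4a3 were called higher in LPS + Ska than in LPS, the latter pair with log2 fold changes of 0.99 and 0.62 (limma adjusted p = 0.0040 and 0.049), and Clec4a1 was not called (0.27, limma adjusted p = 0.32). Clec4d (MCL), the partner of Mincle, had 206 ± 3.87, 130 ± 3.86 and 375 ± 4.21 TPM in DMSO, LPS and LPS + Ska (SD, n = 3), a log2 fold change of 1.52 from LPS (SE 0.04, limma adjusted p = 2.6e-07). Clec4n (Dectin-2) was called higher in both steps, by 1.18 from DMSO to LPS (limma adjusted p = 0.0052) and by 1.04 from LPS to LPS + Ska (limma adjusted p = 0.024).

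Cd36 and Clec4e stand in the list of alternative activation and scavenger receptor genes. Of the other 25 tested genes of that list, 13 were called lower and 1 higher in LPS than in DMSO, against 20% and 12.7% of all genes tested. From LPS to LPS + Ska, 8 of the 25 were called higher, against 3.35%, and 1, the transcription factor gene Irf4, was called lower, against 6.14%. The lower call was lost (0 genes) with assumed values in place of the tied columns and without LPS replicate 5, LPS replicate 6, LPS + Ska replicate 5 or LPS + Ska replicate 7.

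Procr (ENSMUSG00000027611, chr2:155751117-155755471), the endothelial protein C receptor, had 2.98, 3.49 and 4.84 TPM with DMSO, 4.06, 3.20 and 4.91 with LPS, and 14.6, 14.8 and 14.5 with LPS + Ska. DMSO and LPS overlapped, and the LPS + Ska mean was 3.61 times the LPS mean. Jag1, a Notch ligand, was also low, with 4.56, 5.26 and 6.66 TPM with DMSO, 5.42, 6.10 and 4.74 with LPS and 10.5, 12.5 and 8.43 with LPS + Ska. Sdc4, a heparan sulphate proteoglycan, had 48.8, 60.0 and 65.6 TPM with DMSO, 45.4, 43.7 and 47.1 with LPS and 72.3, 71.9 and 72.6 with LPS + Ska, with LPS lowest. The kinase gene Sgk1 and the creatine transporter gene Slc16a12 completed this group, with mean TPM of 4.90 and 34.1 with LPS and 7.93 and 55.1 with LPS + Ska.

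Nucleotide and phosphate enzymes gave 4 genes, among them the one with the largest difference. Nme3 (ENSMUSG00000073435, chr17:24896500-24897522), a nucleoside diphosphate kinase of the mitochondrial surface, had 0.315, 1.14 and 3.06 TPM with DMSO, 2.02, 2.08 and 1.96 with LPS, and 13.4, 13.2 and 13.5 with LPS + Ska. The ratio of LPS + Ska to LPS was 6.61 and the difference 2.25, while the DMSO columns alone ran from 0.315 to 3.06 TPM. Without DMSO replicate 7 the gene left the LPS window. Without any 1 of the LPS + Ska columns its mean fell under the limit of 5 TPM, which it met only through that group. With 1 LPS or LPS + Ska column left out the difference itself was 2.23 to 2.26. Of its exonic bases, 87.1% are shared on the same strand with Mrps34 and 65.9% on the opposite strand with Mapk8ip3, and the library kit named in the labels does not mark strand. Mrps34, at 43.2 ± 9.81, 40.4 ± 14.3 and 45.8 ± 11.5 TPM in DMSO, LPS and LPS + Ska (SD, n = 3), was far more abundant than Nme3 and was not called (log2 fold change 0.21, limma adjusted p = 0.60), so the level of Nme3 is uncertain. Hint1, a purine nucleoside phosphoramidase, rested on no such overlap and had 433, 426 and 406 TPM with DMSO, 349, 352 and 345 with LPS, and 633, 614 and 652 with LPS + Ska. Nme1, the cytosolic kinase of the same family as Nme3, had 71.2, 73.9 and 71.1 TPM with DMSO, 70.9, 65.9 and 75.8 with LPS, and 111, 95.0 and 127 with LPS + Ska. Its near copy Nme2 was at 486 ± 12.8, 337 ± 2.02 and 371 ± 100 TPM (SD, n = 3) and was not called between LPS + Ska and LPS (limma adjusted p = 0.67). Reads that both copies share could be divided between them, and in LPS + Ska Nme2 was the more variable of the pair. Of further kinases of the family, Nme4 and Nme6 had log2 fold changes of -0.41 and -0.01, and Nme7 was called lower, with a log2 fold change of -0.69 (SE 0.13, limma adjusted p = 0.0043). Acyp1, an acylphosphatase, had a mean of 13.8 TPM with LPS and 24.5 with LPS + Ska.

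For mitochondria and amino acids there were 5 genes, which remained after the respiratory chain genes starting Nduf, Cox or Atp5 and those of the mitochondrial genome had been dropped. Bcat1, the cytosolic branched-chain aminotransferase, had 86.7, 82.4 and 69.7 TPM with DMSO, 96.9, 68.1 and 126 with LPS, and 156, 151 and 161 with LPS + Ska. Its LPS columns were the most scattered of the genes in this group and enclosed the DMSO columns. Pam16, a subunit of the import motor of the inner membrane, had means of 42.3 TPM with LPS and 62.6 with LPS + Ska, Tmem69 of 30.9 and 48.1, and Cmc4, a small intermembrane space protein, of 9.32 and 16.3. Micu3, a regulator of the calcium uniporter, had means of 8.73 and 14.2 TPM. Cmc4 shares 43.5% of its exonic bases with Mtcp1, which was not called (log2 fold change -0.37, limma adjusted p = 0.18). Among 71 tested genes of mitochondrial import, coenzymes and dynamics, Pam16 was the only one of the 56, where all genes tested held 56 among 12819.

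Protein folding, the endoplasmic reticulum and the proteasome gave 6 genes with a median difference of 0.56, the lowest of the role groups. Psma5, an alpha subunit of the proteasome core, had 299, 317 and 349 TPM with DMSO, 373, 369 and 377 with LPS, and 535, 537 and 532 with LPS + Ska, in 3 separate steps. Of the other alpha subunits, Psma3 was called higher in both steps, with log2 fold changes of 0.72 (limma adjusted p = 8.2e-06) and 0.69 (limma adjusted p = 9.4e-05). Psma7, at 0.47 from LPS to LPS + Ska (limma adjusted p = 0.0015), was under the fold limit, and Psma1, Psma2, Psma4 and Psma6 lay between -0.14 and 0.26. Dnajb4, a J-domain co-chaperone, had 13.7, 15.6 and 15.2 TPM with DMSO, 13.8, 12.05 and 15.5 with LPS and 23.6, 25.1 and 22.2 with LPS + Ska. Its DMSO and LPS columns were interleaved. Krtcap2, a subunit of the oligosaccharyltransferase, and Selenos, a selenoprotein of degradation at the endoplasmic reticulum, had means of 188 and 114 TPM with LPS and of 275 and 167 with LPS + Ska. The ubiquitin ligase gene Rnf183 had means of 7.47 and 13.1 TPM, and Jkamp, another component of degradation at the endoplasmic reticulum, of 31.7 and 47.4.

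Vesicle and microtubule transport gave another 6 genes. Vps29, a subunit of the retromer that returns receptors from endosomes, had 54.6, 53.0 and 53.6 TPM with DMSO, 55.8, 57.2 and 54.4 with LPS, and 92.3, 92.5 and 92.2 with LPS + Ska. The columns within each group of this gene were close together and those of LPS + Ska stood apart. Commd8, a subunit of the commander complex that works beside retromer, had 32.1, 35.9 and 33.3 TPM with DMSO, 39.6, 39.0 and 40.2 with LPS and 56.5, 56.7 and 56.2 with LPS + Ska. Tmem230, a vesicle membrane protein, and Ift20, a carrier of ciliary cargo from the Golgi, had lower columns with LPS than with DMSO and means in LPS + Ska of 48.8 and 51.4 TPM, not far above those of 41.1 and 45.4 with DMSO. Agbl3, a tubulin deglutamylase, and Iqcg, a calmodulin-binding axonemal protein, were at 17.2 and 7.82 TPM with LPS + Ska. Iqcg shares 48.1% of its exonic bases on the opposite strand with Lrch3, which was called lower in LPS + Ska than in LPS (log2 fold change -0.94, SE 0.19, limma adjusted p = 0.0068).

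The 3 genes of RNA processing and the nucleolus included Gemin4 (ENSMUSG00000049396, chr11:76210571-76217664), a subunit of the SMN complex that assembles spliceosomal particles. It had 22.5, 0.488 and 21.0 TPM with DMSO, 11.4, 11.9 and 10.8 with LPS, and 26.6, 29.1 and 24.2 with LPS + Ska. A single DMSO column, replicate 6, was near 0 while the other two lay close under the LPS + Ska columns, and without that column Gemin4 left the LPS window. It also shares 89.8% of its exonic bases with Glod4 on the same strand and 77% with Fam57a on the other strand, and Glod4 had a log2 fold change of -0.37 (SE 0.11, limma adjusted p = 0.035). Npm3, a histone chaperone of the nucleolus, had 89.4, 113 and 102 TPM with DMSO, 86.1, 83.8 and 88.3 with LPS and 131, 124 and 138 with LPS + Ska, with LPS lowest. Lsm8, part of the ring on U6 RNA, had 53.9, 40.4 and 67.3 TPM with LPS and 78.3, 70.2 and 86.4 with LPS + Ska, which nearly met.

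Pseudogenes and a noncoding gene made up 4 of the 56, by the annotation of the same build. Trmt112-ps2, a processed pseudogene of a methyltransferase activator, had 26.6, 29.3 and 22.6 TPM with DMSO, 21.9, 17.8 and 25.9 with LPS, and 47.6, 42.3 and 52.9 with LPS + Ska. The parent gene Trmt112 had 119 ± 8.57, 93.5 ± 1.36 and 110 ± 13.1 TPM (SD, n = 3) and was not called between LPS + Ska and LPS (log2 fold change 0.23, SE 0.09, limma adjusted p = 0.078). Cd63-ps had means of 42.8 TPM with LPS and 64.6 with LPS + Ska, a difference of 0.58, equal at this precision to the 0.58 of Cd63. Reads of a pseudogene and its parent can be assigned to either, so these levels are uncertain. Magef1 and AW046200 had means of 7.33 and 8.70 TPM with LPS and 14.3 and 13.2 with LPS + Ska.

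The remaining 6 genes had other or less known roles and differences of 0.51 to 0.84. Ypel5, a small zinc-binding protein, had 10.5, 10.6 and 10.6 TPM with DMSO, 9.74, 12.2 and 7.25 with LPS and 18.3, 17.2 and 19.3 with LPS + Ska. Tcp11l1, Smim3, Lrrc57 and Apbb3 had means of 37.6, 15.5, 21.6 and 29.0 TPM with LPS + Ska against 22.4, 9.05, 13.7 and 19.8 with LPS. Fsbp had means of 5.73 and 8.56 TPM, and 47.5% of its exonic bases are shared with Rad54b, which was not called (log2 fold change -0.23, limma adjusted p = 0.25).

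Position, length and base composition did not enter the rule. Of the 56 genes, 52 are annotated as protein coding, and their largest number on 1 chromosome was 8, on chromosome 4. Their transcripts were shorter, with a median over genes of 878.5 bases for the gene's median transcript against 1184 bases over genes averaging 5 TPM or more, and their GC content had a median of 47.3% against 49.2%. Annotated exons of 21 of the 56 overlapped another gene, and in 5 (Nme3, Gemin4, Iqcg, Fsbp and Cmc4) the shared part was over 40%. Between columns of the same group the coefficient of variation had a median of 11.3% with DMSO, 4.96% with LPS and 5.73% with LPS + Ska, against 8.54%, 3.71% and 8.65% over genes averaging 5 TPM or more. Unlike position, length and base composition, this spread bears on the rule, which required columns apart, and the LPS and LPS + Ska columns are tied. With the trend on GC content removed from each column, the same rule gave 125 genes, 36 of them among the 56, and with the trend on transcript length removed it gave 108 genes, 49 of them among the 56.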

How the data were processed

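The labels name fastp 0.20.1, HISAT2 2.2.1, StringTie 2.0 and the mm10 build in the submitters' processing notes. The authors deposited TPM for 55401 genes by Ensembl identifier in 9 columns (3 a group), and 55141 identifiers matched a symbol. Depth is not kept by TPM, so no counting interval was given. Coordinates, transcript lengths, GC content and overlaps came from a GENCODE annotation of the same build, and promoter windows from RefSeq (GRCm38.p6).

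The genes were chosen by the rule given in the report. They, their role groups and the gene lists were chosen with earlier results of these data known. Other genes were tested with limma 3.58.1 in R 4.3.3 (lmFit, then eBayes with its trend option) on log2(TPM + 1), which understates the change of low genes, with all 9 columns and the 12819 genes averaging 1 TPM or more. Calls needed a fold change above 1.5 or below 0.67 together with a Benjamini-Hochberg adjusted p under 0.05. The fit was tested on simulated data, where it recovered 74.25% of changes of 0.8 and 93.9% of changes of 1.5. The simulated columns were independent, so the test cannot show how the fit behaves with tied columns. The p-values measure the spread between these columns, which may be technical, and the columns of 2 groups are tied as the report describes. The fit took all 9 columns as independent, so its standard errors and adjusted p-values are likely too small.

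By rule, the named genes were the 20 with the largest difference, the 5 with the highest level, list members and families, and in the Nrf2, iron and AhR lists the 5 tested non-members with the largest change. All other genes of the 56, relatives of named genes and overlapping genes were named after their values had been seen. Alternatives were other limits and pseudocounts, median-ratio scaling, TPM without mitochondrial-genome and ribosomal protein genes, 2 assumed values in place of tied columns, a replicate block, removal of a length trend and each column left out, and removal of a GC trend, chosen after the data had been seen (lowess, span 0.3). The 2 assumed values were placed evenly about replicate 5 and lie closer together than replicates 6 and 7. No source gives the values behind a tie. Plots were made with Python 3.11.15 and matplotlib 3.10.9.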

Additional observations from a re-analysis of the deposited data

How the results depend on the processing

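The rule found 56 genes as reported, and 24 with an LPS window of 0.2, 19 with a rise over 0.75, 101 with no symbol dropped, 111 with median-ratio scaling (53 of them among the 56), 108 with the length trend removed and 125 with the GC trend removed, the last chosen after the data had been seen. Median-ratio scaling moved the median of all genes averaging 5 TPM or more from -0.089 to 0.0066 in LPS + Ska minus LPS and from -0.16 to 0.012 in LPS + Ska minus DMSO. Leaving out 1 column gave 55 to 67 genes, and 36 of the 56 were found whichever column was left out. Without LPS replicate 6, 8 of the 56 were lost. The median difference of the 56 was 0.69 with a pseudocount of 0.1, 0.77 with median-ratio scaling and 0.65 to 0.69 with 1 column left out in LPS + Ska minus LPS. In LPS minus DMSO it was 0.059 with median-ratio scaling and -0.045 to -0.02 with 1 column left out, and in LPS + Ska minus DMSO 0.75 with a pseudocount of 0.1, 0.91 with median-ratio scaling and 0.68 to 0.73 with 1 column left out.

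With a mean TPM of at least 5, limma called 516 genes lower in LPS + Ska than in LPS, 1 AhR target higher and 1 iron and haem gene lower. Alternative activation genes called lower numbered 2 with a pseudocount of 0.1, 2 without a filter, 0 with the assumed values and 0 to 2 with 1 column left out. Serpinb2 was at 0.016 without LPS replicate 6 and between -0.24 and 0.016 over all columns left out. The causes of these changes were not tested. The deviations of same-numbered columns correlated by 0.38, 0.15 and 0.13 between LPS and LPS + Ska, whose columns are tied alike, and by -0.032 to 0.080 for the other pairs, so no pairing by number was assumed. With the replicate block, 427 genes were called higher and 771 lower in LPS + Ska against LPS, 1649 and 2586 in LPS against DMSO, and 1469 and 3260 in LPS + Ska against DMSO.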
